A study of Mus musculus with 8 samples.

Results

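The genes of triglyceride breakdown and of the lipid droplet surface were examined in the brown fat (brown adipose tissue, BAT) of mice that had undergone either thoracic aortic constriction (TAC) or a sham operation (Sham). TAC narrows the aorta, so that the left ventricle pumps against a raised pressure. The 10 genes were 3 lipases (Pnpla2, Lipe and Mgll), a pair of regulators of the first lipase (Abhd5 and G0s2) and 5 droplet proteins (Plin1, Plin2, Plin4, Plin5 and Cidec). They were chosen by name, of 21154 genes with a named probe, with earlier results of these data known. Every array probe whose RefSeq accession belongs to any of the 10 was taken. This gave 16 probes. All 16 passed the filter on dim probes, and none was saturated on any array.

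All mice were male C57BL/6NCrSlc, operated on at 11 weeks and collected at 13 weeks of age, kept at 23 °C with free access to normal chow, and by the labels differed only in the operation (Sham, n = 4; TAC, n = 4). The labels call the samples independent without saying that each is 1 mouse, so that p-values measure the spread between these samples. They also disagree on the time after surgery, with 2 weeks in the source name and treatment protocol and 4 weeks in the description. Total RNA of each sample was hybridised to a one-colour Agilent array, and the scanner intensities of 7 arrays (Sham replicates 2 to 4, TAC replicates 1 to 4) carry the tests, while Sham replicate 1 is known only from a deposited table of all 8 arrays.

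A level here is the log2 intensity of a probe relative to the 75th percentile of its array, and a difference is the TAC mean minus the Sham mean on that log2 scale, so that -1 is a halving of the intensity. Levels of different probes are not compared, because each probe binds with its own strength. Between 54.5% and 64.3% of spots were well above background on each array. TAC replicate 1 stood apart from the other arrays, at 89.5 on the first principal component (39.3% of the variance) against -8.33 to 4.07 for the other TAC arrays and -32.6 to -20.9 for Sham. The values of the 10 genes, and some others that depend on this array, are also given without it. The 7 scanned arrays lie on 1 slide with Sham in one row and TAC in the other, so that slide row and operation cannot be told apart. The tissue carried its defining brown adipocyte transcripts, with Ucp1, which uncouples respiration to make heat, at levels between 8.55 and 9.88 over the 8 arrays.

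Brown adipocytes store triglyceride in many small droplets and release fatty acids from it to fuel heat production. Pnpla2 encodes the lipase that removes the first fatty acid, Lipe the hormone-sensitive lipase that acts next on diglyceride, and Mgll the lipase that frees the last fatty acid and glycerol. Abhd5 (also known as CGI-58) activates the Pnpla2 product and G0s2 inhibits it. In the resting cell the Plin1 protein holds the Abhd5 protein at the droplet, and phosphorylation by protein kinase A, the kinase switched on by adrenergic signals, sets it free.

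No probe on the array passed an adjusted p of 0.05 (limma, 0% of 33359 probes in the 7 arrays, and 0% in the table of 8 arrays), so none of the 10 genes can be called changed. The smallest adjusted p of any of the 16 probes was 0.183 (limma). Within that limit, the values ran from near 0 to groups that did not overlap. The main lipase Pnpla2 stood at the same level in both groups to within a few hundredths of a log2 unit, with an interval of -0.22 to 0.15. Its activator Abhd5 was lower in every TAC array than in every Sham array by all 3 of its probes. The highest TAC value lay close under Sham replicate 1, at 3.27 against 3.33 for the brightest probe. Of all probes, 11.8% in the 7 arrays and 6.3% in the 8 were lower without overlap in the same way.

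At an unadjusted p under 0.05, 4 of the 16 probes were lower after TAC (all 3 for Abhd5 and the 1 for Plin1) and 0 were higher, where 9.6% of all probes were lower and 3.83% higher (limma). With 1 probe a gene, 2 of the 10 genes were lower and 0 higher, against 9.37% and 3.44% of all genes tested. In the table of 8 arrays the count was 5 lower and 0 higher, against 9.56% and 4.65% of all probes. Without TAC replicate 1 it was 4 lower in the scanner values, where Plin1 (unadjusted p 0.0700, limma) was replaced by G0s2 (unadjusted p 0.0438, limma), beside the 3 for Abhd5 (background 9.79% lower and 3.94% higher) and 5 lower in the table (background 8.64% and 4.57%). The difference was below 0 for 15 of the 16 probes, with Plin4 as the exception, and 58.4% of all probes were below 0. Without TAC replicate 1 it was below 0 for 13 of the 16, against 56.8% of all probes. The median over the 10 genes, with 1 probe each, was -0.25, or -0.13 without TAC replicate 1, and that over the 14989 genes tested was -0.04, or -0.03 without it.

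The same values were also counted array by array, which adds no separate evidence. All 4 TAC values lay below all Sham values for 5 of the 16 probes in the 7 arrays and for 4 in the 8 arrays. Over all probes this held for 11.8% and 6.3%. In both counts 3 of the probes were the repeat readings of Abhd5. With 1 probe a gene it held for 2 of the 10 genes in the 7 arrays and 1 in the 8. Over the 14989 genes tested it held for 1868 and 976. None of the 16 had all TAC values above all Sham values, against 4.89% and 3.53% of all probes. Leaving TAC replicate 1 out of the 8 arrays kept the count at 4 lower and added 1 higher, Plin4, where the shares over all probes were 8.25% and 5.34%.

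**Figure D1:**
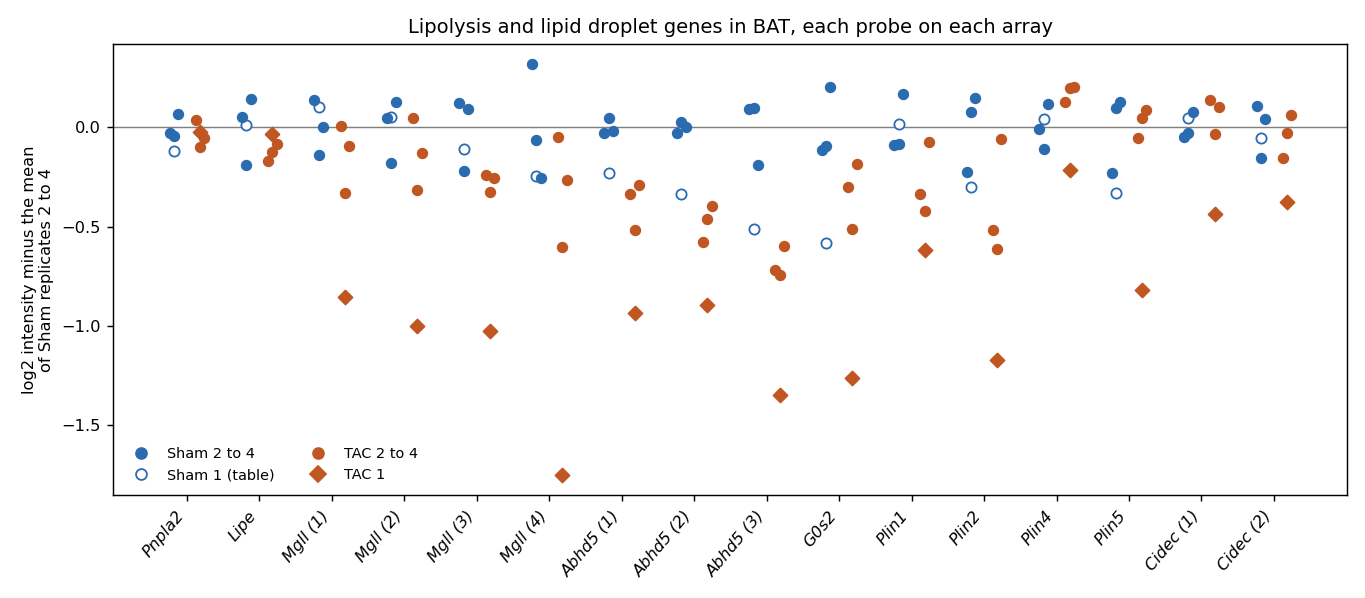
Level of each probe on each array (vertical axis, log2 intensity minus the mean of Sham replicates 2 to 4 for that probe) for the 10 genes (horizontal axis, probe number in brackets where a gene has several). Blue points are Sham, the open point being Sham replicate 1 from the table, brown points are TAC and the diamond is TAC replicate 1, which is the lowest TAC array for 14 of the 16 probes.

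The sequences upstream of the lipase, its activator and its inhibitor are shown because these genes act on one reaction and carry the range of values described next. They are the 250 bases before the transcription start in RefSeq (assembly GRCm38.p6), read 5′ to 3′ on the gene's strand at chr7:141454938-141455187 on the plus strand for Pnpla2, chr9:122351366-122351615 on the plus strand for Abhd5 and chr1:193273189-193273438 on the minus strand for G0s2. Capitals mark any match, on either strand, to the GC box (GGGCGG) or the nuclear receptor half-site (AGGTCA), read as CCGCCC or TGACCT where it lies on the other strand.
Pnpla2: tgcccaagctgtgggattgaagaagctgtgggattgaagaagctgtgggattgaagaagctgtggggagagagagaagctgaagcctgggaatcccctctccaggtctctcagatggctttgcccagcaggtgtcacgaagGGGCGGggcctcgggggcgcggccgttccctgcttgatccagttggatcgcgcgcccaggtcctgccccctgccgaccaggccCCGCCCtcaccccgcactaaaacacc
Abhd5: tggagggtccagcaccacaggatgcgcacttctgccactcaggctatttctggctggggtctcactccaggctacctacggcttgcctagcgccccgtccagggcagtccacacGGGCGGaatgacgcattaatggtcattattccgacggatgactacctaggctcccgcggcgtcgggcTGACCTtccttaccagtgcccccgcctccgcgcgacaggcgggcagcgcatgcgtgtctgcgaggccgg
G0s2: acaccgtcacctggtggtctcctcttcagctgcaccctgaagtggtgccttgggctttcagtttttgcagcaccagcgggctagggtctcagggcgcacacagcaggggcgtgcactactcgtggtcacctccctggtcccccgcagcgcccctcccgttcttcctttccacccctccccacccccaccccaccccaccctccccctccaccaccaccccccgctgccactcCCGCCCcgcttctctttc
Pnpla2 held GC boxes beginning 109 and 26 bases before its start, Abhd5 a GC box at 136 and a half-site at 69, and G0s2 a GC box at 18. Of 32851 mouse promoters of this length, 32.7% held the GC box and 14.0% the half-site. Of the 7 motifs searched, no other had a match in these sequences. Among the 10 genes the half-site also lay upstream of Plin2 and Plin5. A match describes the letters only.

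Among the lipases, Pnpla2 had levels of 9.12, 9.22, 9.31 and 9.20 in Sham replicates 1 to 4 and of 9.22, 9.28, 9.19 and 9.14 in TAC replicates 1 to 4. The groups overlapped fully, and TAC replicate 1, which was low for most of the genes, was in the middle here. The difference was -0.03 ± 0.08 (SE, 7 arrays), a ratio of 0.976, with an adjusted p of 0.866 (limma). Its sign turned under quantile normalization, where the difference was 0.16, and it was -0.04 without TAC replicate 1.

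Lipe, the next enzyme, ranged from 4.16 to 4.49 in Sham and from 4.19 to 4.32 in TAC. Every TAC value lay inside the Sham range. The difference was -0.10 ± 0.10 (SE), with a 95% interval of -0.34 to 0.14 and an adjusted p of 0.675 (limma), and it was -0.13 ± 0.11 (SE) without TAC replicate 1.

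Mgll, the last enzyme, had 4 probes, 2 for each of 2 RefSeq transcripts. The brightest read 7.05, 7.09, 6.95 and 6.81 in Sham and 6.09, 6.96, 6.85 and 6.62 in TAC. TAC replicates 1 and 4 were below every Sham array, the first by far the most, and the other TAC arrays lay within the Sham range. The differences of the 4 probes ran from -0.67 to -0.32, and without TAC replicate 1 from -0.31 to -0.13. One of the probes for the other transcript had all TAC values (3.41, 4.20, 4.19 and 4.12) below all Sham values (4.33, 4.57, 4.54 and 4.22), with a difference of -0.46 ± 0.22 (SE) and an adjusted p of 0.411 (limma). The dimmest of the 4 was not well above background on TAC replicate 1.

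Of the regulators, Abhd5 had the smallest p of the 10 genes. Its brightest probe read 3.33, 3.53, 3.54 and 3.61 in Sham and 2.62, 3.22, 3.27 and 3.04 in TAC. The highest TAC array was below the lowest Sham array, and this held for each probe. The difference was -0.52 ± 0.16 (SE), a ratio of 0.698, with a 95% interval of -0.90 to -0.13 and an adjusted p of 0.284 (limma). Over all 22 alternatives that adjusted p ran from 0.153 to 0.646.

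The other Abhd5 probes, all for the same transcript, gave larger differences. The second read 2.10, 2.41, 2.44 and 2.46 in Sham and 1.54, 1.86, 2.04 and 1.98 in TAC, a difference of -0.58 ± 0.13 (SE, adjusted p 0.183, limma). The third read 1.19, 1.79, 1.51 and 1.80 in Sham and 0.35, 0.98, 1.101 and 0.96 in TAC, a difference of -0.85 ± 0.19 (SE, adjusted p 0.186, limma). The 3 probes bind the same RNA samples, so they are repeat readings and not further replicates.

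Abhd5 was also below Sham without TAC replicate 1, at -0.38 ± 0.09, -0.48 ± 0.08 and -0.69 ± 0.11 (SE) for the 3 probes. In the table of 8 arrays the differences were -0.46 ± 0.15, -0.50 ± 0.13 and -0.72 ± 0.20 (SE). Sham replicate 1 was the lowest Sham array for each probe.

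G0s2, the inhibitor, read 5.95, 6.42, 6.74 and 6.44 in Sham and 5.27, 6.23, 6.35 and 6.02 in TAC. All TAC values lay below Sham replicates 2 to 4, but Sham replicate 1 lay below 3 of the 4 TAC arrays. The difference was -0.57 ± 0.26 (SE, 7 arrays), with a 95% interval of -1.18 to 0.05 and an adjusted p of 0.407 (limma). It was -0.42 in the table of 8 arrays and, leaving out TAC replicate 1, -0.33 in the scanner values and -0.19 in the table.

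**Figure D2:**
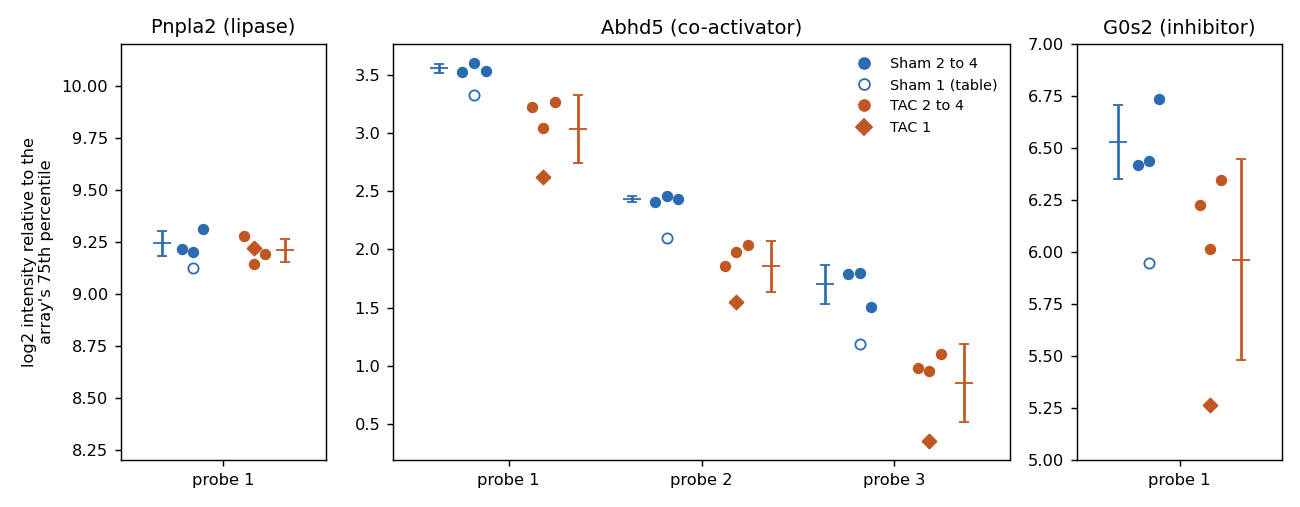
Levels of Pnpla2, the 3 Abhd5 probes and G0s2 (vertical axis, log2 intensity relative to the array's 75th percentile, with panels of different range) on each array. Points are arrays (blue Sham, open blue Sham replicate 1 from the table, brown TAC, diamond TAC replicate 1) and bars are the mean ± SD of Sham replicates 2 to 4 and of the 4 TAC arrays. Pnpla2 overlaps between the groups, whereas the TAC points of each Abhd5 probe lie below its Sham points.

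The droplet proteins coat the droplet and control access of the lipases. Their values ran from below Sham (Plin1, Plin2) to near 0 (Plin4, Cidec), with Plin5 between them at -0.18. Plin1, the perilipin of adipocytes, read 7.10, 6.99, 7.25 and 6.998 in Sham and 6.46, 6.74, 7.005 and 6.66 in TAC. Only TAC replicate 3 reached into the Sham range. The difference was -0.36 ± 0.14 (SE), a ratio of 0.778, with an adjusted p of 0.353 (limma), and it was -0.28 without TAC replicate 1 and -0.37 in the table of 8 arrays.

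Plin2, found on droplets of many cell types and stabilised by lipid, read 6.60, 6.68, 7.05 and 6.98 in Sham and 5.73, 6.38, 6.84 and 6.29 in TAC. Here too TAC replicate 3 alone lay within the Sham range. The difference was -0.59 ± 0.25 (SE), with an interval of -1.18 to 0.00 and an adjusted p of 0.375 (limma), and it was -0.40 ± 0.18 (SE) without TAC replicate 1.

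Plin4 and Plin5 are neighbouring genes, and Plin5 is the perilipin of oxidative tissues, where it ties droplets to mitochondria. Plin4 read 7.75, 7.70, 7.83 and 7.61 in Sham and 7.50, 7.84, 7.91 and 7.91 in TAC, a difference of 0.08 ± 0.13 (SE, adjusted p 0.807, limma). TAC replicate 1 was below every Sham array and the other TAC arrays above every one, and without it the difference was 0.18 ± 0.09 (SE, adjusted p 0.426, limma).

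Plin5 read 7.36, 7.46, 7.82 and 7.79 in Sham and 6.87, 7.64, 7.78 and 7.74 in TAC. The 3 other TAC arrays lay within the Sham range, with TAC replicate 1 below it. The difference was -0.18 ± 0.24 (SE, adjusted p 0.751, limma), and it turned positive when TAC replicate 1 was left out, to 0.03 in the scanner values and 0.11 in the table.

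Cidec, which fuses droplets into larger ones, gave -0.06 ± 0.15 and -0.12 ± 0.13 (SE) by its 2 probes, with adjusted p-values of 0.888 and 0.693 (limma). The brighter probe spanned 8.49 to 8.61 in Sham and 8.10 to 8.67 in TAC, with TAC replicate 1 again the lowest, and without that array its difference was 0.07. The 95% intervals of Plin4, Plin5 and Cidec reached from -0.75 to 0.38 at the widest, so these arrays leave room for a moderate difference of either sign.

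**Figure D3:**
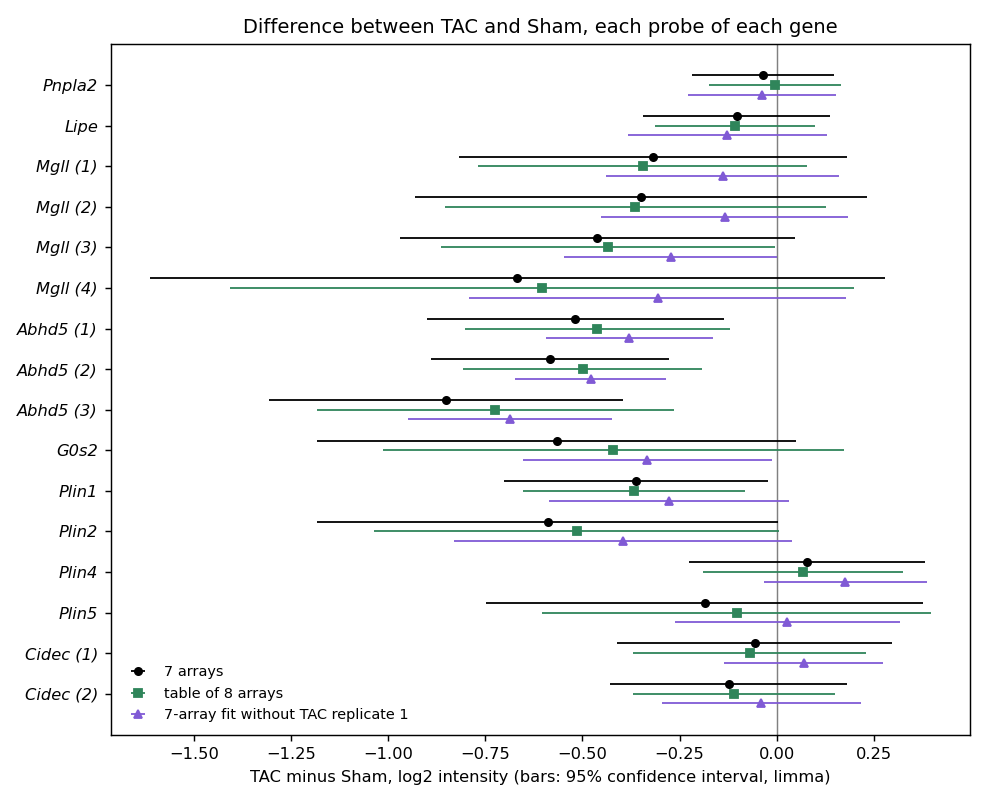
Difference between TAC and Sham (horizontal axis, log2 intensity) for each probe (vertical axis), with 95% confidence intervals from limma for the 7 arrays (black circles), the table of 8 arrays (green squares) and the 7-array fit without TAC replicate 1 (purple triangles). The intervals of the 3 Abhd5 probes lie below 0 in all 3 fits. Those of Pnpla2, Lipe, Plin2, Plin4, Plin5, Cidec and every Mgll probe but the third span 0 in all 3. The third Mgll probe spans 0 except in the table of 8 arrays, and G0s2 except without TAC replicate 1. Plin1 spans 0 only without TAC replicate 1.

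Markers of other cells moved with TAC replicate 1. On that array the mean of the 10 genes, counted from that of Sham replicates 2 to 4, was -0.64, and on the other TAC arrays it was between -0.24 and -0.04. The 15 macrophage markers stood at 1.16 on it against -0.41 to -0.12 on the other TAC arrays, their summed level being 6.92 against 5.64 to 5.88, and 5.90 to 6.07 in Sham. The lymphocyte markers stood at 1.26 against -0.32 to -0.01 on the same arrays, with Sham replicate 1 at 0.62. Of the 13 lymphocyte markers 9 were tested.

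The 11 brown adipocyte markers were at -1.29 on TAC replicate 1 and at -0.61 to -0.11 on the other TAC arrays, against -0.27 to 0.18 in Sham, so that TAC replicates 2 and 3 lay within the Sham range. All 11 had differences below 0. Ucp1 itself gave -0.62 ± 0.21 (SE, adjusted p 0.309, limma). Its level was 8.55 on TAC replicate 1, 9.14 to 9.39 on the other TAC arrays and 9.43 to 9.88 in Sham. In contrast the 9 general adipocyte markers ranged only from -0.07 to 0.17 over the 8 arrays, with 0.00 on TAC replicate 1, and Adipoq, which encodes the fat hormone adiponectin, gave 0.17 ± 0.10 (SE, adjusted p 0.484, limma). All 15 skeletal muscle markers had differences above 0, with a median of 0.95, or 0.73 without TAC replicate 1 and 0.70 in the table of 8 arrays. None passed an unadjusted p under 0.05 (0 of 15, limma), and their mean ran from -0.85 to 0.95 in Sham and from -0.59 to 1.496 in TAC, highest on TAC replicate 1. The endothelial markers lay between -0.05 and 0.17 and the erythroid markers, of which 5 of 8 were tested, between -0.77 and 0.46. The part of these cells in the values of the 10 genes was not tested. In whole tissue, fewer cells of a type and less RNA per cell cannot be told apart.

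**Figure D4:**
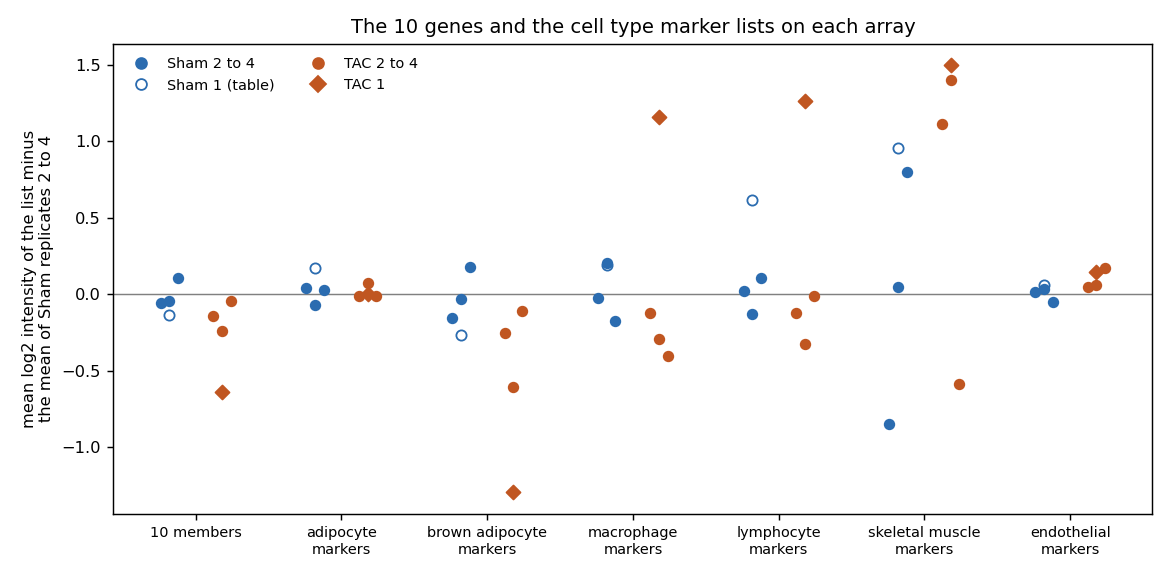
Mean log2 intensity of the 10 genes (1 probe each) and of cell type marker lists on each array (vertical axis, minus the mean over Sham replicates 2 to 4). Blue points are Sham, the open point is Sham replicate 1 from the table, brown points are TAC and the diamond is TAC replicate 1. That array is lowest for the 10 genes and the brown adipocyte markers, highest for the macrophage and lymphocyte markers, and at 0.00 for the general adipocyte markers.

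The rest of the pathway was read from lists of related genes, with 1 probe a gene. Over all genes tested, 9.37% were lower and 3.44% higher at an unadjusted p under 0.05 (limma), 57.9% were below 0 and the median difference was -0.04. No gene of any list passed the adjusted threshold. The counts below are given beside this background, and no list was tested.

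Upstream, the list of adrenergic and cAMP signalling held 26 tested genes of 27, of which 3 were lower and 1 higher at the unadjusted threshold, and its median was -0.03. Adcy5 and Adcy3 make cAMP and Adrb1 is a beta-adrenergic receptor. They gave 0.96 ± 0.33, -0.52 ± 0.19 and -0.72 ± 0.26 (SE), with adjusted p-values of 0.309, 0.327 and 0.321 (limma). The Adcy5 groups overlapped, and with Sham replicate 1, at -0.52 level with the highest TAC array, its difference in the table of 8 arrays was 0.58 ± 0.43 (SE). Adcy3 was lower in every TAC array than in Sham replicates 2 to 4 but overlapped with Sham replicate 1. Adrb3, the main adrenergic receptor of brown fat and named here after its value was seen, gave -1.02 ± 0.45 (SE, adjusted p 0.388, limma).

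Of 12 tested among 13 other lipases, 2 were lower and 0 higher at the unadjusted threshold, with a median of -0.01. Pnpla3, a close relative of Pnpla2, gave -1.22 ± 0.51 (SE), with Sham values of 4.46 to 5.13 and TAC values of 4.21 to 4.26 apart from 2.22 on TAC replicate 1, without which it was -0.71 ± 0.13. The intracellular phospholipase Ddhd2 gave -0.71 ± 0.25 and the lysosomal acid lipase Lipa -0.22 ± 0.11 (SE). Their adjusted p-values were 0.372, 0.314 and 0.419 (limma). The Ddhd2 groups overlapped once Sham replicate 1 was included, and its difference in the table of 8 arrays was -0.59 ± 0.24 (SE).

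The 13 other droplet proteins had 1 gene lower and 1 higher and a median of -0.09, which was 0.02 in the table of 8 arrays and 0.07 without TAC replicate 1. Hilpda, a hypoxia-inducible droplet protein that also inhibits the Pnpla2 lipase, was the gene above Sham. It read 1.23, 1.41, 1.20 and 1.08 in Sham and 1.61, 1.60, 1.59 and 2.07 in TAC. All TAC arrays lay above all Sham arrays, and the difference was 0.49 ± 0.15 (SE, adjusted p 0.286, limma). Cideb gave -0.40 ± 0.14 (SE, adjusted p 0.320, limma) in the 7 arrays and -0.12 in the table, where Sham replicate 1 stood at 2.31 against 3.41 to 3.48 for the other Sham arrays. Bscl2 (seipin), which shapes nascent droplets, gave -0.34 ± 0.17 (SE, adjusted p 0.427, limma), and -0.20 ± 0.11 (SE) without TAC replicate 1.

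Downstream, 11 of the 13 genes that carry, activate or release fatty acids and glycerol were below 0. At the unadjusted threshold 4 were lower and 1 higher. The median of the list was -0.44, or -0.31 without TAC replicate 1. Acsl5, which joins fatty acids to coenzyme A, read 3.91, 4.25, 4.43 and 4.02 in Sham and 2.26, 3.30, 2.83 and 3.06 in TAC. No TAC array reached the Sham range, and the difference was -1.38 ± 0.25 (SE, adjusted p 0.169, limma). The thioesterase Acot11 gave -1.21 ± 0.29 and the fatty acid binding protein Fabp5 -0.44 ± 0.13 (SE), with adjusted p-values of 0.203 and 0.274 (limma). The Acot11 groups overlapped once Sham replicate 1 was included, and its difference in the table of 8 arrays was -0.96 ± 0.33 (SE).

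The building of lipid is the opposite arm of the cycle. Of the 17 genes of triglyceride synthesis 14 were below 0, 3 of them at the unadjusted threshold, with a median of -0.20, or -0.12 without TAC replicate 1. Gpd2 gave -0.82 ± 0.17, Agpat2 -1.03 ± 0.33 and Mogat1 -1.48 ± 0.55 (SE), with adjusted p-values of 0.172, 0.296 and 0.331 (limma). Without TAC replicate 1 Agpat2 gave -0.71 ± 0.14 and Mogat1 -0.96 ± 0.19 (SE). With Sham replicate 1 the Gpd2 groups overlapped, and its difference in the table of 8 arrays was -0.65 ± 0.21 (SE). Of 15 tested genes of fatty acid synthesis 11 were lower and 0 higher at the unadjusted threshold, with a median of -0.89 that was -1.04 without TAC replicate 1. Acss2, Acly and Acaca, which make and carboxylate acetyl coenzyme A, gave -1.72 ± 0.21, -1.89 ± 0.28 and -1.74 ± 0.27 (SE), each with an adjusted p of 0.169 (limma), and all TAC arrays were below all 8-array Sham values for each. The 10 genes of lipolysis and the droplet, with 1 probe each, had smaller differences, from -0.59 to 0.08. Their other probes reached -0.85 (Abhd5) and -0.67 (Mgll). Acss2, Acly and Acaca were picked for the smallest p of their list. The whole list ran from -2.95 to 0.14 and so overlapped the range of the 10 genes. The contrast in size was not tested.

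**Figure D5:**
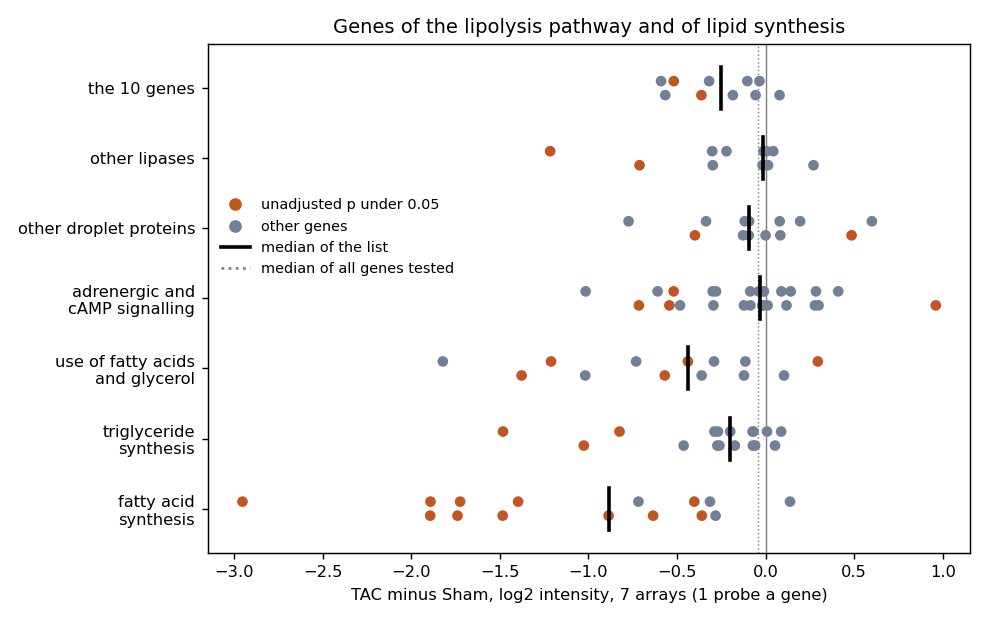
Difference between TAC and Sham (horizontal axis, log2 intensity, 7 arrays, 1 probe a gene) for the 10 genes and for lists of related genes (vertical axis). Brown points are genes with an unadjusted p under 0.05, grey points the other genes, black bars the list medians and the dotted line the median of all genes tested (-0.04). The 10 genes lie between -0.59 and 0.08, and the list of fatty acid synthesis runs from -2.95 to 0.14.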

How the data were processed

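Brown adipose tissue RNA of 4 Sham and 4 TAC samples was labelled with Cy3 and hybridised to one-colour Agilent arrays. Per the file headers, the deposited scanner intensities of 7 arrays were extracted with Agilent Feature Extraction 10.7.1.1 and are background-subtracted and linear. The authors also deposited a table of 8 arrays with 1 intensity per probe, whose making is not given in the sources used here. On every array with both, 100% of its probes above 100 units equalled the scanner value divided by 1 number, to within 1%, and its 75th percentiles were between 1.002 and 1.004. Sham replicate 1 was taken from this table alone.

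Outlier spots, as the extraction software marks them, were dropped. Intensities were converted to log2, spots of a probe were averaged and the array's 75th percentile over probes was subtracted. No array held more than 1 saturated spot. Testing required a probe to stand well above background on 3 or more of the 7 arrays, with 2 or more measured arrays per group, which left 33359 probes. The contrast of TAC with Sham was fitted by limma 3.58.1 (lmFit and eBayes, R 4.3.3), with Benjamini-Hochberg adjustment over all probes tested and a threshold of 0.05. All adjusted p-values come from this test, which was checked on simulated data.

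Probes were named through their accessions, without versions, from RefSeq's gene table for GRCm38.p6. It named 28026 of 55681 probes, or 50.3%, and 94.1% of those with a RefSeq accession. Where a gene has several probes, its brightest on average represents it. All 10 genes of interest are reported with all their probes, and of each other list the 3 genes with the smallest unadjusted p, since none passed the adjusted threshold. The 10 genes and all lists were chosen with earlier results of these data known. A list is described by counts and its median, beside those over all genes, and no list was tested.

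Alternatives changed the scaling (median centring, quantile normalization), the background (normexp, offset 50), the filter (none, or every array), the variance model (an intensity trend, array weights), the test (the methods' t-test, a replicate block) and the samples (1 array left out at a time). Others used the table (8 arrays, the same 7, or without TAC replicate 1), kept outlier spots, or averaged a gene's probes. The 75th percentile over spots, and counts of groups that do not overlap among 8 arrays without TAC replicate 1, were added after the data had been seen. The number of arrays limits the precision.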

Additional observations from a re-analysis of the deposited data

Results flagged for a closer look

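Among 32 groups of 4 arrays examined, 2 for each of the 16 probes, 3 had 1 array far from the other 3, by a gap over the group's whole range that exceeds Dixon's 95% critical value. Chance gives about 1 in 20 such groups. The third Mgll probe had TAC replicate 1 at 3.41 against 4.12 to 4.20 for the other TAC arrays (gap 0.890 of the range). Plin5 had TAC replicate 1 at 6.87 against 7.64 to 7.78 (gap 0.843). The second Abhd5 probe had Sham replicate 1 at 2.10 against 2.42 to 2.47 for the other Sham arrays in the table of 8 arrays (gap 0.861), and its difference between TAC and Sham was -0.58 in the 7 arrays, which leave that sample out, and -0.50 in the 8.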

How the results depend on the processing

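Of 354 values of the 16 probes under alternatives, 345 kept their sign and 0 passed the adjusted threshold (limma), whose smallest adjusted p was 0.0856. The other 9 changed sign, in Pnpla2, Plin5 and Cidec, whose differences in the 7 arrays were -0.03, -0.18 and -0.06. Pnpla2 gave 0.16 under quantile normalization. Plin5 gave 0.11 in the table without TAC replicate 1, 0.0276 with the replicate block in 7 arrays and -0.30 to 0.0276 with 1 array left out. Cidec gave 0.0731 under quantile normalization, 0.0571 in the table without TAC replicate 1, 0.0701 with the replicate block in 7 arrays, 0.0209 with array weights and -0.12 to 0.0701 with 1 array left out. In the 7 arrays the replicate block leaves TAC replicate 1 without a Sham partner. Its differences therefore equal those of the fit without that array and add no separate estimate. The cause of the sign changes was not tested.

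Over all probes, those passing the adjusted threshold (limma) numbered 0 in each direction. They numbered 1 lower with normexp, 1 lower in the table of the same 7 arrays, 2 lower with array weights, and 0 to 2 lower and 0 to 6 higher with 1 array left out, both highest without TAC replicate 4. At an unadjusted p, 3204 were lower and 1276 higher (71.5% lower), against 2811 and 1905 (59.6% lower) under quantile normalization and 1763 and 739 without Sham replicate 3. The probes of the 10 genes lower at that threshold were 7 rather than 4 with an intensity trend, 7 with the replicate block in the table of 8 arrays, and 3 to 6 with 1 array left out. Each Abhd5 probe stayed under it in all 22 alternatives. Plin1 did not in 8 of 22 (unadjusted p 0.0549 to 0.135, limma): no filter, the methods' t-test, and without any 1 array but TAC replicate 3. Of 60 list medians under alternatives 7 changed sign, to 0.00665 to 0.0667, in the lists of other lipases, other droplet proteins and adrenergic signalling. Whether replicate numbers pair the samples was read from correlations of deviations. These were -0.03 to 0.00 in the scanner values, for replicates 2 to 4. In the table they were 0.02 to 0.06 for those replicates and 0.27 for replicate 1. The scanner values cannot check that last pair, because they hold no Sham replicate 1.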
